A study of Mus musculus with 12 samples.

Results

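The 10 genes described here encode chemokines that fibroblasts are known to secrete: the CXC chemokines Cxcl1, Cxcl5, Cxcl10 and Cxcl12, the CC chemokines Ccl2, Ccl5, Ccl7, Ccl9 and Ccl17, and the membrane-bound Cx3cl1. They were chosen by name, with earlier results of these data known. All 10 were found among the 43280 entries of the table with the Control and 2MUT libraries. The table with the 2-HG(-) and 2-HG(+) libraries also held all 10, among 23930 entries. The cells were mouse embryonic fibroblasts (MEF cells) of C57BL/6 origin, taken at embryonic day 13.5 and grown by serial passage until they became immortal without an added oncogene. 2MUT cells stably carried a FLAG-tagged human IDH2 mutant from a retroviral vector, selected with puromycin, and Control cells carried the mock vector; neither was treated. 2-HG(+) cells received 300 μM 2-HG, given in the study's methods as its octyl ester, for 24 h, and 2-HG(-) cells received DMSO for 24 h according to the labels. Each group held 3 libraries. Since nothing in the labels ties the 3 libraries of a group to separate transductions or animals, p-values measure the spread between these libraries, which may be technical.

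Chemokines are small secreted proteins that attract cells along a gradient by binding G protein-coupled receptors. Cxcl1 and Cxcl5 attract neutrophils through Cxcr2; Ccl2 and Ccl7 attract monocytes through Ccr2; Cxcl10 attracts T cells through Cxcr3; Cxcl12 holds stem cells and lymphocytes through Cxcr4. In fibroblasts, inflammatory chemokine genes are known targets of NF-kB, and Cxcl10 and Ccl5 are also known targets of interferon-activated factors, while Cxcl12 is expressed constitutively in many stromal cells. 2-HG is the metabolite that cancer-associated IDH mutants make from α-ketoglutarate, and it competitively inhibits enzymes that use α-ketoglutarate.

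Values are RPM, the reads counted on a gene per 1000000 reads counted on all genes of the library. The Control and 2MUT libraries held 6472439 to 7313602 reads, and the 2-HG libraries 14959318 to 18363768 reads, so that 3 reads correspond to 0.41 to 0.464 RPM and to 0.163 to 0.201 RPM, respectively. Of the 10 fibroblast markers, 9 were above the filter in each table, and Lum was at most 1.57 RPM. The summed fibroblast markers were at 15040 to 17010.4 RPM in Control and 13378 to 13822 RPM in 2MUT libraries, and at 21646 to 23290.0 RPM in 2-HG(-) and 15256 to 16279.8 RPM in 2-HG(+) libraries. Endogenous Idh2 was measured at 70.9, 80.8 and 80.1 RPM in Control and at 42.6, 51.1 and 55.2 RPM in 2MUT libraries. Whether the mouse target of Idh2 takes up reads of the human cDNA is not known here, so this value does not check the labels.

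The members that shared a direction of change were not all neighbours in the genome. In GENCODE M21 on GRCm38, Ccl2 (chr11:82035571-82037453, plus strand) lies next to Ccl7 (chr11:82045712-82047525, plus strand), and Ccl5 (chr11:83525778-83530518, minus strand) lies near Ccl9 (chr11:83572919-83578636, minus strand). Cxcl5 (chr5:90759360-90761624, plus strand) and Cxcl1 (chr5:90891241-90893115, plus strand) belong to the cluster that also holds Ppbp, and Cxcl10 (chr5:92346638-92348889, minus strand) lies further along chromosome 5. Cx3cl1 (chr8:94772009-94782427, plus strand) and Ccl17 (chr8:94810453-94812036, plus strand) are neighbours, and Cxcl12 lies at chr6:117168535-117181367 on the plus strand. The annotation places Gm17268 across Ccl2 and Art3 across Cxcl10, and reads of overlapping genes could not be told apart here.

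Promoter sequences from RefSeq (GRCm38.p6) were matched for 6 of the 10 members, Cxcl1, Cxcl10, Cxcl12, Cx3cl1, Ccl17 and Ccl9. The stretch from 250 to 11 bases before the annotated start is shown for 4 of them: Cxcl1, which was called in opposite directions in 2MUT and with 2-HG, and Cxcl10, Cxcl12 and Ccl9, which were called only with 2-HG. The sequences run 5′ to 3′ on the gene's own strand, and capitals mark every match to the motifs searched.
Cxcl1 (chr5:90890995-90891234, plus strand): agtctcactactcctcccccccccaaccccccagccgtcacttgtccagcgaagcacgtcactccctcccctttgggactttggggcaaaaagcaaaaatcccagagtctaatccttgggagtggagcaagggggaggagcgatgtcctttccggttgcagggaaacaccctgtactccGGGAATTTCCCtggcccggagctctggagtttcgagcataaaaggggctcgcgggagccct
Cxcl10 (chr5:92348900-92349139, minus strand): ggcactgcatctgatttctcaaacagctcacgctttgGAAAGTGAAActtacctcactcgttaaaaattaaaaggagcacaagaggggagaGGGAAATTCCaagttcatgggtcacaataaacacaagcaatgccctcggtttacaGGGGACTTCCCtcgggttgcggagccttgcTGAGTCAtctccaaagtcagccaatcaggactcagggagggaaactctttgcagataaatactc
Cxcl12 (chr6:117168285-117168524, plus strand): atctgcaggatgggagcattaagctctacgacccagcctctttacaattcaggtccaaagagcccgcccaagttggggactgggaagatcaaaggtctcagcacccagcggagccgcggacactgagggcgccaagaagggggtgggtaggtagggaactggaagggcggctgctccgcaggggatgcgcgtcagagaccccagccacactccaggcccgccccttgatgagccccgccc
Ccl9 (chr11:83578647-83578886, minus strand): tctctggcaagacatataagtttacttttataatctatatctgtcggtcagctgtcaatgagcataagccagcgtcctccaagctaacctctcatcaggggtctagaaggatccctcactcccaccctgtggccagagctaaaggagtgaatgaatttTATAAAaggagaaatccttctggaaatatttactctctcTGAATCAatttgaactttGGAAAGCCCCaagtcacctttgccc

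Motifs were searched in the 250 bases before the start: NF-kB (by its consensus), the core of the interferon-stimulated response element GAAANNGAAA, the AP-1 site TGANTCA, these on both strands, and the TATA box TATAAA on the gene's strand only. The Cxcl1 window held 1 NF-kB stretch, 71 to 61 bases before the start, where matches on both strands overlap. The Cxcl10 window held the interferon-stimulated core 213 to 204 bases, NF-kB stretches 159 to 150 and 104 to 94 bases, the second of overlapping matches, and an AP-1 site 74 to 68 bases before the start. The Ccl9 window held TATAAA 92 to 87 bases, AP-1 53 to 47 bases and NF-kB 35 to 26 bases before the start. No searched letters were found in the windows of Cxcl12 and Ccl17, and that of Cx3cl1 held only TATAAA, 6 to 1 bases before the start. Thus 3 of 6 members matched the NF-kB consensus, against 7.25% of 32851 such windows; for the interferon-stimulated core this was 1 of 6 against 2.98%, for AP-1 2 of 6 against 6.75%, and for TATAAA 2 of 6 against 7.59%. A match describes the letters and does not show that a factor binds there.

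To ask which chemokine genes differ in cells with stable mutant IDH2, 2MUT was compared with Control. The neutrophil chemokines Cxcl1 and Cxcl5 were up-regulated by 3.2-fold and 3.3-fold, whereas Ccl5, Ccl17 and Cx3cl1 were down-regulated to ratios of 0.189, 0.14 and 0.416 of the Control level. The other 5 members, Ccl2, Ccl7, Ccl9, Cxcl10 and Cxcl12, did not pass the threshold. By limma with Benjamini-Hochberg adjustment, 16.5% of the 11065 genes tested were higher and 17.3% lower in 2MUT, against 2 and 3 of the 10 members. The members' median log2 fold change was 0.06, and that of all genes tested was 0.01. In bulk RNA, fewer cells that express a gene and less of its RNA per cell cannot be told apart.

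Cxcl1 was at 2644, 2581 and 2358 RPM in the 3 Control libraries and at 9227, 7439.8 and 7576 RPM in the 3 2MUT libraries. Cxcl5 was at 1032, 1221 and 903 RPM in Control and at 3819, 3411 and 3188 RPM in 2MUT. For both genes each 2MUT library lay far above every Control library. The log2 fold changes were 1.67 (SE 0.10) for Cxcl1 and 1.73 (SE 0.12) for Cxcl5, with adjusted p-values of 1.1e-06 and 2e-06. Together these 2 chemokines took 0.326% to 0.38% of all reads in Control and 1.08% to 1.3% in 2MUT libraries.

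Ccl5, which attracts T cells and monocytes, was at 194, 194 and 208 RPM in Control and at 35.4, 40.6 and 36.7 RPM in 2MUT. The groups did not overlap, and the log2 fold change was -2.37 (SE 0.11, adjusted p = 1.5e-07). The study itself had picked out Ccl5 from these libraries, so its fall is not independent evidence. Ccl17, a ligand of Ccr4 on T helper cells, was at 6.81, 10.8 and 9.71 RPM in Control and at 1.08, 2.05 and 0.688 RPM in 2MUT. Its fall was of similar size, -2.18 (SE 0.27, adjusted p = 0.00014), but rested on 5 to 14 reads per 2MUT library.

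Cx3cl1 (fractalkine), which is both an adhesion molecule on the cell surface and, after cleavage, a soluble attractant for cells with Cx3cr1, was at 704, 638 and 583 RPM in Control and at 302, 258 and 241 RPM in 2MUT. All 2MUT libraries were below all Control libraries, and the log2 fold change was -1.27 (SE 0.11, adjusted p = 1.2e-05).

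The monocyte chemokine Ccl2 was at 118, 179 and 129 RPM in Control and at 183, 178 and 158 RPM in 2MUT, with overlapping groups. Its log2 fold change was 0.30 (SE 0.15, adjusted p = 0.13). Control replicate 2 stood apart from the other Control libraries for Ccl2, and without it the log2 fold change was 0.48 and passed the threshold (adjusted p = 0.0099), while without Control replicate 1 it was 0.18 (adjusted p = 0.36). Its neighbour Ccl7 was at 26.9, 30.5 and 28.6 RPM in Control and at 36.6, 37.9 and 32.2 RPM in 2MUT. Although these groups did not overlap, as for 23.5% of genes tested in the upward and 24.0% in the downward direction, the log2 fold change of 0.30 (SE 0.13) did not pass the threshold (adjusted p = 0.1).

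The stromal chemokine Cxcl12 was at 768, 986 and 881 RPM in Control and at 1133, 1079 and 909 RPM in 2MUT, a log2 fold change of 0.25 (SE 0.11, adjusted p = 0.12) with overlapping groups. Cxcl10, the interferon-inducible attractant, was at 7.84, 11.7 and 7.79 RPM in Control and at 5.72, 6.15 and 7.84 RPM in 2MUT (log2 fold change -0.41, SE 0.21, adjusted p = 0.17). Ccl9, a ligand of Ccr1, was near the limit of detection, with 9 to 16 reads per Control library and 10 to 11 reads per 2MUT library. For Ccl9 the 95% confidence interval of the log2 fold change ran from -0.65 to 0.41.

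**Figure D1:**
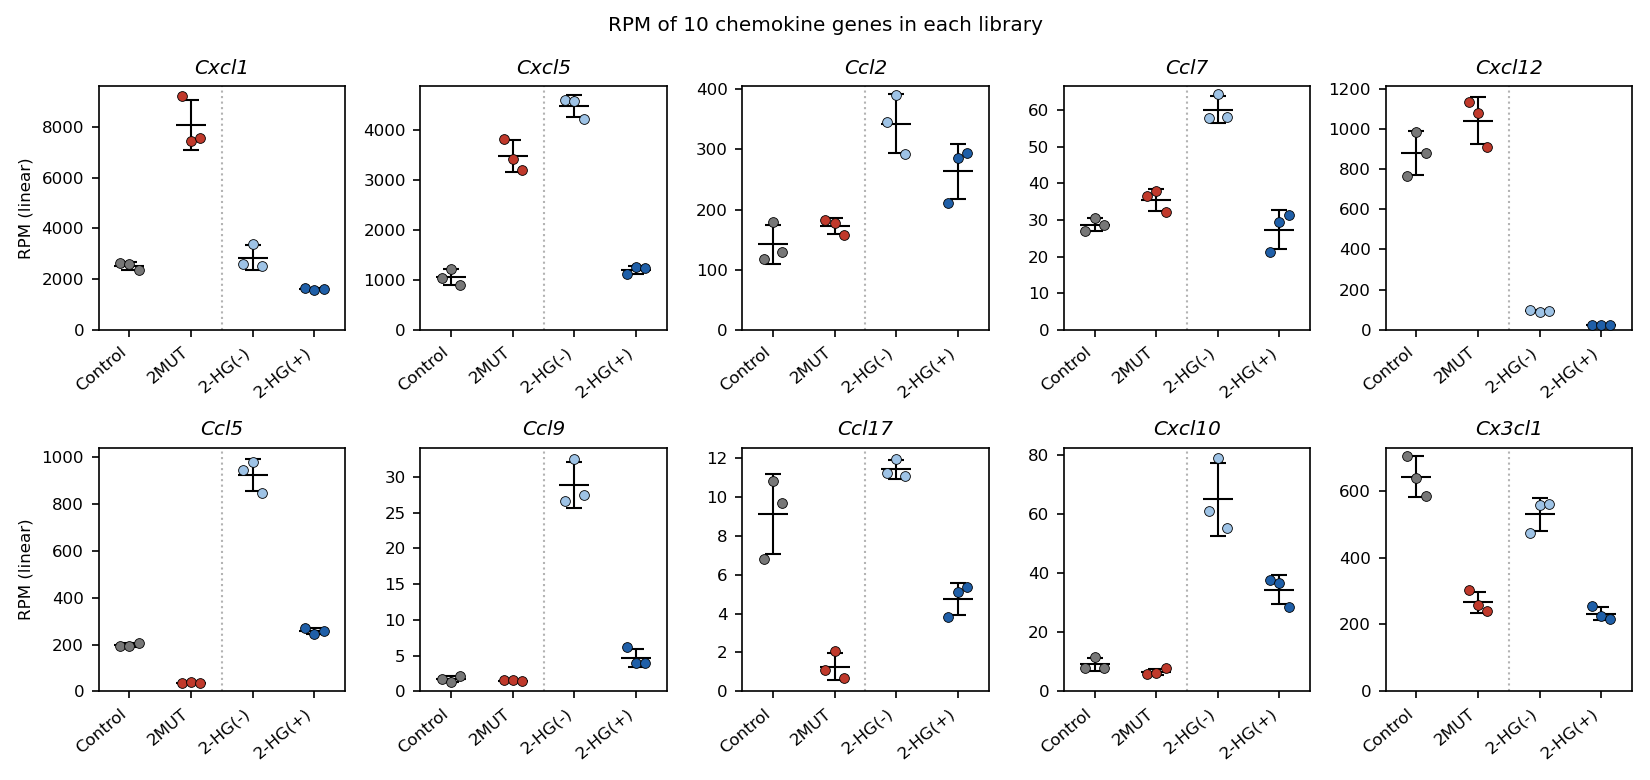
RPM of each chemokine gene (linear axis from 0) in the 12 libraries, with points for libraries and bars for the mean ± SD of 3 libraries; the dotted line separates the tables, which were normalized separately. Cxcl1 and Cxcl5 are higher in 2MUT than in Control and lower in 2-HG(+) than in 2-HG(-), whereas Ccl5, Ccl17 and Cx3cl1 are lower in both.

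To ask which of these genes differ after 24 h of treatment with 2-HG, 2-HG(+) was compared with 2-HG(-). No group received an octyl ester without 2-HG, so effects of the ester and of 2-HG cannot be told apart. Of the 10 chemokine genes, 9 were down-regulated, none was up-regulated and Ccl2 did not pass the threshold. By limma with Benjamini-Hochberg adjustment, 16.7% of the 10384 genes tested were lower and 16.1% higher. The 9 genes were also those whose 2-HG(+) libraries all lay below the 2-HG(-) libraries, which was the case for 24.1% of the genes tested. The median log2 fold change was -1.16 over the members, with 10 of 10 below 0, and -0.02 over all genes tested, with 52.3% below 0. All members together took 0.869% to 1.02% of the reads in 2-HG(-) and 0.36% to 0.372% in 2-HG(+) libraries.

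Ccl9 had the largest decrease of the members, from 26.6, 32.6 and 27.5 RPM in 2-HG(-) to 6.15, 3.97 and 3.92 RPM in 2-HG(+). This was 16.2% of the level without 2-HG, a log2 fold change of -2.41 (SE 0.17, adjusted p = 1.2e-05). Cxcl12 fell from 100.4, 89.5 and 94.9 RPM to 26.3, 22.1 and 26.4 RPM (log2 fold change -1.89, SE 0.11, adjusted p = 4.1e-06). For both genes the 3 treated libraries lay well below all untreated ones.

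Of the neutrophil chemokines, Cxcl5 dropped to 26.9% and Cxcl1 to 56.9%. Cxcl5 was at 4605, 4585 and 4216 RPM in 2-HG(-) and at 1114, 1256 and 1235 RPM in 2-HG(+) libraries, with a log2 fold change of -1.89 (SE 0.11, adjusted p = 3e-06). Cxcl1 was at 2586, 3402 and 2527 RPM in 2-HG(-) and at 1652, 1576 and 1616 RPM in 2-HG(+) libraries, with a log2 fold change of -0.80 (SE 0.13, adjusted p = 0.0015). The 95% confidence intervals ran from -2.13 to -1.66 for Cxcl5 and from -1.09 to -0.51 for Cxcl1, whereas in 2MUT those of both genes overlapped; the difference between the genes was not tested.

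Ccl5 decreased from 946, 982 and 847 RPM to 271, 246 and 258 RPM (log2 fold change -1.83, SE 0.10, adjusted p = 2.2e-06). Cx3cl1 decreased from 473, 558 and 559 RPM to 254, 225 and 217 RPM (log2 fold change -1.19, SE 0.11, adjusted p = 4.7e-05). Ccl17 decreased from 11.2, 12.0 and 11.0 RPM to 3.83, 5.11 and 5.36 RPM (log2 fold change -1.12, SE 0.15, adjusted p = 0.00046). These are the 3 members that were also lower in 2MUT.

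Of the linked genes Ccl7 and Ccl2, only Ccl7 passed the threshold, and the difference between the genes was not tested. Ccl7 was at 57.9, 64.4 and 58.1 RPM in 2-HG(-) and at 21.3, 29.5 and 31.2 RPM in 2-HG(+), a log2 fold change of -1.13 (SE 0.15, adjusted p = 0.00044). Ccl2 was at 346, 389.9 and 293 RPM in 2-HG(-) and at 210.4, 286 and 294 RPM in 2-HG(+), a log2 fold change of -0.38 (SE 0.15, adjusted p = 0.079). The highest 2-HG(+) library of Ccl2 lay within the range of the 2-HG(-) libraries, and the call was gained under quantile normalization (-0.45, adjusted p = 0.045), while with single libraries left out the value ranged from -0.49 to -0.23 with no call. Cxcl10 decreased from 60.9, 78.8 and 55.3 RPM to 37.8, 36.5 and 28.7 RPM (log2 fold change -0.90, SE 0.16, adjusted p = 0.0021).

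**Figure D2:**
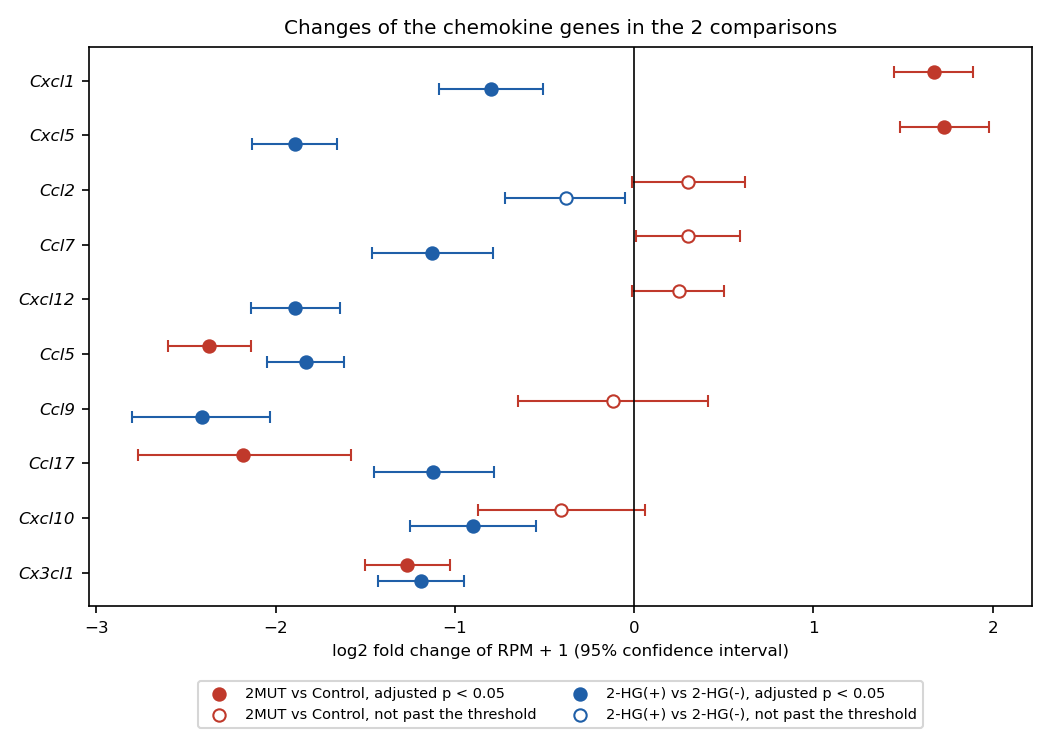
Log2 fold change of RPM + 1 for each chemokine gene in 2MUT against Control (red) and in 2-HG(+) against 2-HG(-) (blue), with 95% confidence intervals; filled points passed an adjusted p of 0.05. Cxcl1 and Cxcl5 lie at 1.67 and 1.73 in red and at -0.80 and -1.89 in blue, and the 2 changes of Cx3cl1, -1.27 and -1.19, lie side by side.

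The comparisons share no library, so the changes could be tested against each other. Of the 10 members, 6 changed more upward in 2MUT than with 2-HG, 2 changed more downward in 2MUT, and Cxcl10 and Cx3cl1 did not pass the threshold. Over the 9594 genes tested in both tables, 19.9% had the difference in the first and 19.5% in the second direction (limma contrast, Benjamini-Hochberg adjustment). Mutant cells and treated cells also differ in vector, selection, the octyl ester, duration and baseline. These cannot be told apart from the source of 2-HG in this contrast.

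The difference was greatest for Cxcl5, at 3.62 on the log2 scale (95% confidence interval 3.27 to 3.97, adjusted p = 4.7e-09), and Cxcl1 followed with 2.47 (2.1 to 2.84, adjusted p = 1.9e-07). Both were higher in 2MUT and lower with 2-HG, as were 403 of 9594 genes (4.2%). Ccl9, Cxcl12 and Ccl7 fell with 2-HG and were not called in 2MUT, and their differences of 2.29, 2.14 and 1.43 passed the test (adjusted p = 1.4e-05, 4.6e-07 and 7.2e-05). The Ccl9 value in this contrast rests on the low reads of the Control and 2MUT libraries.

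Ccl5 and Ccl17 were lower in both comparisons, and the fall was deeper in 2MUT by 0.54 (95% confidence interval of the difference -0.82 to -0.26, adjusted p = 0.0047) and 1.06 (-1.73 to -0.39, adjusted p = 0.015). For Cx3cl1 the difference was -0.08 with an interval from -0.42 to 0.27 (adjusted p = 0.73). These 3 genes are among 294 genes (3.06%) called lower in both comparisons. Cxcl10 had a difference of 0.49 with an interval from -0.08 to 1.06 (adjusted p = 0.16), and it passed the threshold without Control replicate 2 (0.66, adjusted p = 0.05 after rounding). The members Ccl7, Ccl9, Cxcl10 and Cxcl12, were among 869 genes (9.06%) with no call in 2MUT and a lower level with 2-HG.

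Ccl2 had a difference of 0.69 (SE 0.23, adjusted p = 0.031), although it was called in neither comparison, as were 4516 genes (47.1%). This call was lost in the unmoderated test (0.69, adjusted p = 0.086). It was also lost without Control replicate 1 (0.57, adjusted p = 0.077), Control replicate 3 (0.63, adjusted p = 0.053), 2MUT replicate 1 (0.65, adjusted p = 0.067) or 2MUT replicate 2 (0.67, adjusted p = 0.062). Among the 2-HG libraries, it was lost without 2-HG(-) replicate 1 (0.68, adjusted p = 0.058), 2-HG(-) replicate 2 (0.59, adjusted p = 0.072) or 2-HG(+) replicate 1 (0.54, adjusted p = 0.074).

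**Figure D3:**
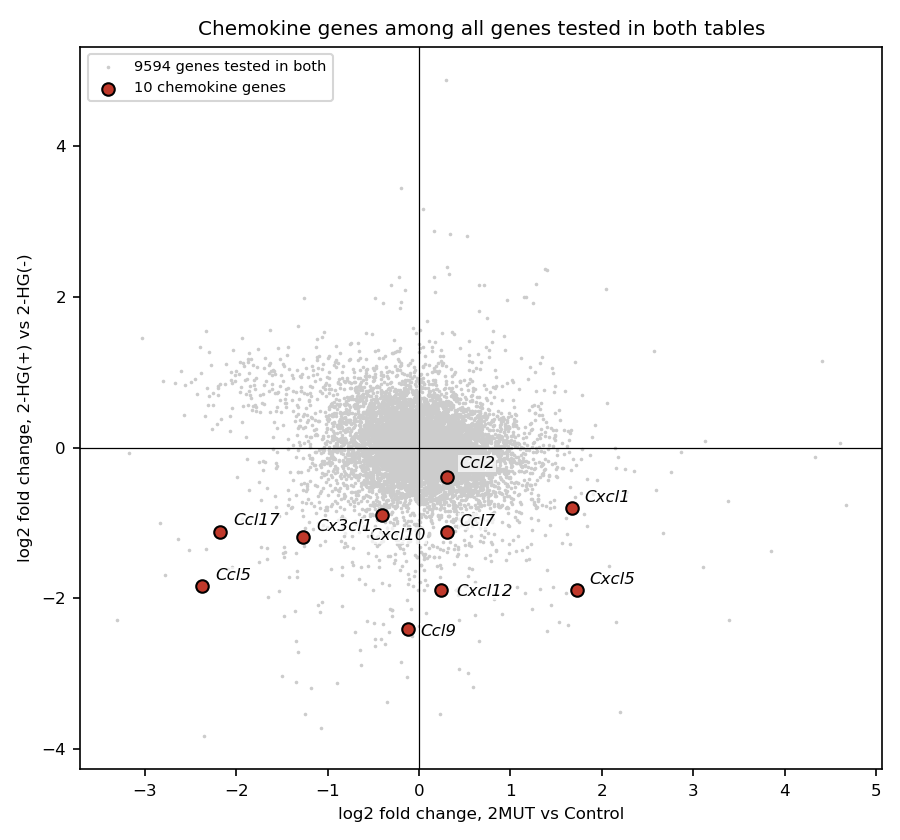
Log2 fold change in 2MUT against Control (x axis) and in 2-HG(+) against 2-HG(-) (y axis) of the 9594 genes tested in both tables (grey) and of the 10 chemokine genes (red). All 10 chemokine genes lie below 0 on the y axis, with Cxcl5 and Cxcl1 to the right and Ccl5, Ccl17 and Cx3cl1 to the left.

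The reference groups of the tables, Control and 2-HG(-), are given side by side. The tables list different entries and were normalized separately, so a difference of table and of cells cannot be told apart, and none was tested. Cxcl12 was at 878 ± 109 RPM (SD, n = 3) in Control and at 94.9 ± 5.43 RPM in 2-HG(-) cells. Ccl9 was at 1.75 ± 0.454 RPM in Control and at 28.9 ± 3.2 RPM in 2-HG(-), and Cxcl10 at 9.11 ± 2.23 and 65.0 ± 12.3 RPM. Cxcl5 was at 1052 ± 160.0 and 4468 ± 219 RPM, and Ccl5 at 199 ± 8.03 and 925 ± 69.6 RPM. Cxcl1 (2528 ± 150.3 and 2838 ± 489 RPM) and Cx3cl1 (642 ± 60.6 and 529.9 ± 49.5 RPM) were closer. The level of Cxcl5 in 2-HG(+) cells was 1202 ± 76.7 RPM.

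Genes that act before, beside and after these chemokines were described from lists. Of 30 other chemokine ligands, 29 were listed in the table of Control and 2MUT, where 5 passed the filter, and 25 in the 2-HG table, where 4 did; most of the others listed had no or few reads. Cxcl16, a transmembrane chemokine like Cx3cl1, fell in both comparisons, from 23.0 ± 3.49 to 9.83 ± 2.39 RPM in 2MUT (log2 fold change -1.16, adjusted p = 0.001) and from 30.1 ± 2.55 to 13.7 ± 0.835 RPM with 2-HG (-1.08, adjusted p = 0.00016). Ppbp, a neighbour of Cxcl5 that encodes a platelet neutrophil attractant, fell with 2-HG (-1.07, adjusted p = 0.001) and had a log2 fold change of -0.35 in 2MUT (adjusted p = 0.098). Ccl8, a monocyte chemokine in the same cluster as Ccl2 and Ccl7, had 0 reads in all Control libraries and 12 to 18 reads in each 2MUT library; set against a floor of 3 reads per Control library, it was at least 5.15-fold higher. Ccl8 passed the filter only through its 2MUT libraries, so its test is no support and its p-value is not given.

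Receptors for the members were scarcely expressed. Cxcr2, Ccr2 and Cx3cr1 had 0 reads in every library of both tables, and of 23 chemokine receptors 2 passed the filter in the first and 1 in the second table. The scavenging receptor Ackr3, which binds Cxcl12, rose from 43.0 ± 9.78 RPM in Control to 90.4 ± 5.11 RPM in 2MUT (log2 fold change 1.08, adjusted p = 0.00046). With 2-HG, Ackr3 had a log2 fold change of 0.17 (adjusted p = 0.26).

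Proteases that shed Cx3cl1 and Cxcl16 or trim chemokines were also listed. The sheddase Adam10 rose in 2MUT (log2 fold change 0.70, adjusted p = 0.00074) and fell with 2-HG (-0.65, adjusted p = 0.0041). Adam17, the other sheddase listed, averaged 2.09 RPM in Control and 0.783 RPM in 2MUT, having passed the filter only through Control, and had a log2 fold change of -0.19 with 2-HG (adjusted p = 0.23). Mmp9, which cleaves several CXC chemokines and which the study also picked out from these libraries, fell with 2-HG from 11.2 ± 1.47 to 1.69 ± 0.551 RPM (log2 fold change -2.19, adjusted p = 2.6e-05), and was under the filter in the other table, at 1.81 ± 0.147 RPM in Control and 0.046 ± 0.0797 RPM in 2MUT. Of the tested proteases, 2 rose and 1 fell of 4 in 2MUT, Adam17 included, and 3 fell of 5 with 2-HG, where over all genes tested 16.5% rose and 17.3% fell in 2MUT and 16.7% fell with 2-HG.

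In the NF-kB list, 5 genes rose and 4 fell of 16 tested in 2MUT, and 1 rose and 5 fell of 16 with 2-HG. Of all genes tested, 16.5% rose and 17.3% fell in 2MUT, and 16.1% rose and 16.7% fell with 2-HG. The median log2 fold changes were 0.08 and -0.29, against 0.01 and -0.02 over all genes. Nfkbiz, an inducible nuclear IκB protein that works as a coactivator, rose from 238 ± 13.9 to 488 ± 7.69 RPM in 2MUT (log2 fold change 1.04, adjusted p = 9.5e-06) and had a log2 fold change of -0.33 with 2-HG (adjusted p = 0.073). Of the 4 genes that fell in 2MUT, Nfkb2 fell most, from 352.4 ± 15.7 to 179.5 ± 9.83 RPM (log2 fold change -0.97, adjusted p = 2.2e-05). With 2-HG its log2 fold change was -0.24 (adjusted p = 0.19).

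The interferon, STAT and IRF list had 2 genes higher and 2 lower of 12 tested in 2MUT, and none higher and 7 lower of 12 with 2-HG. Over all genes tested, 16.5% were higher and 17.3% lower in 2MUT, so that the list's shares in 2MUT were near those of all genes. With 2-HG, 16.1% of all genes were higher and 16.7% lower. Irf7, Irf9 and Stat2, which carry type I interferon responses, fell with 2-HG, with log2 fold changes of -2.84, -2.2 and -1.44 (adjusted p = 1.9e-06, 1e-05 and 0.00026). In 2MUT their log2 fold changes were -0.20, 0.08 and 0.11, none past the threshold. The list's median was -0.5 with 2-HG and -0.03 in 2MUT, against -0.02 and 0.01 over all genes.

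Among cytokines that induce chemokines and their receptors, 3 rose and 2 fell of 9 tested in 2MUT. Over all genes tested there, 16.5% rose and 17.3% fell. With 2-HG, 1 rose and 6 fell of 11, where 16.1% of all genes rose and 16.7% fell. Il6ra, the ligand-binding chain of the Il6 receptor, rose in 2MUT from 20.1 ± 3.88 to 48.4 ± 7.49 RPM (log2 fold change 1.24, adjusted p = 0.0003) and fell with 2-HG from 8.03 ± 1.17 to 3.21 ± 0.114 RPM (-1.09, adjusted p = 0.0005). Lif, a cytokine that signals through Il6st, rose with 2-HG from 23.2 ± 5.35 to 58.7 ± 6.83 RPM (log2 fold change 1.32, adjusted p = 0.00035), and Tlr3, a sensor of double-stranded RNA, fell (-1.08, adjusted p = 0.00081). Il1b had 0 reads in every library, and Tnf averaged at most 0.0457 RPM in any group.

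Over the 6 lists, 15 of 48 genes tested were called higher and 10 lower in 2MUT, against 16.5% and 17.3% of all genes. Ccl8 and Cxcl15 are among the 15 and were under 1 RPM on average in Control, which leaves 13 without them. The 15 became 8 without Control replicate 1, 9 without 2MUT replicate 1 and 7 without 2MUT replicate 3. With 2-HG, 2 of 49 genes were called higher and 23 lower, against 16.1% and 16.7% of all genes, and 1 was called higher without 2-HG(-) replicate 1 or 3 or 2-HG(+) replicate 1 or 2.

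**Figure D4:**
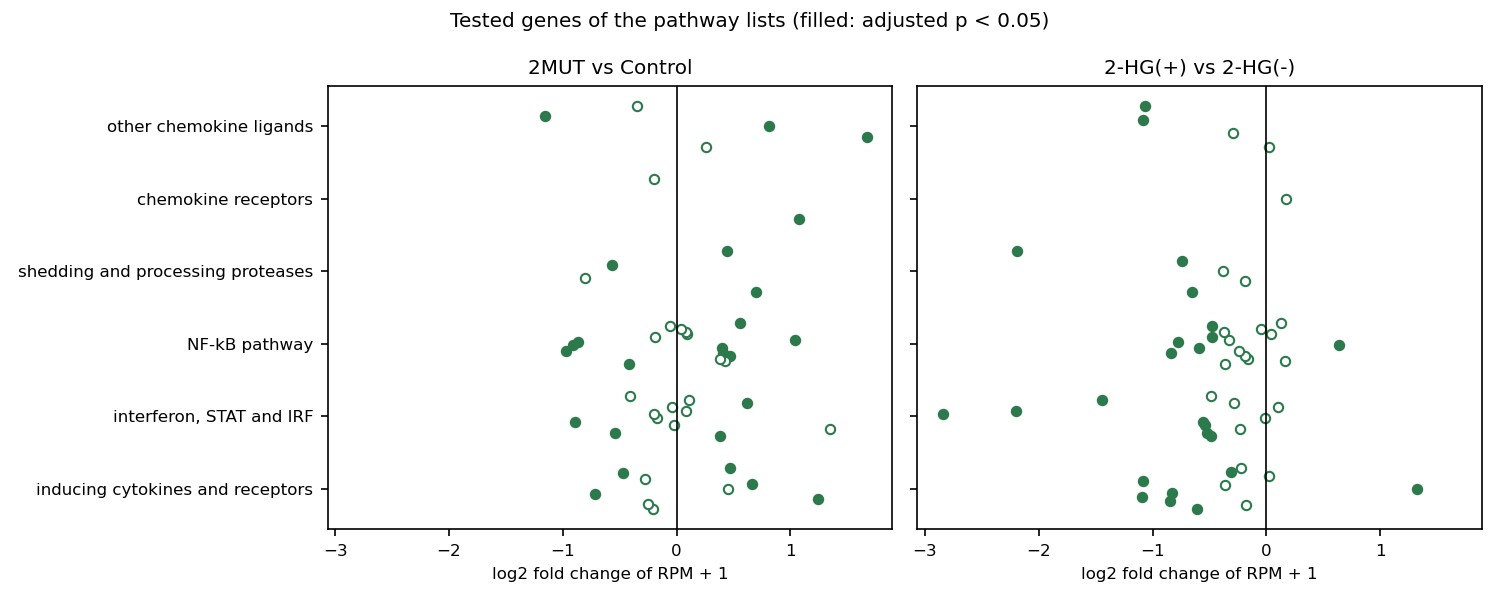
Log2 fold change of RPM + 1 of the tested genes in 6 lists around the chemokines, in 2MUT against Control (left) and 2-HG(+) against 2-HG(-) (right); filled points passed an adjusted p of 0.05. With 2-HG, Irf7 lies furthest left at -2.84, and the only gene above 1 is Lif at 1.32; the value of Ccl8 at the upper right of the left panel depends on the added 1 RPM, since its Control libraries hold 0 reads.

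Markers of other cells were read in the same libraries. The 10 leukocyte and macrophage markers summed to 20.9 to 24.3 RPM in Control and to 43.7 to 54.5 RPM in 2MUT beside the rise of Cxcl1 and Cxcl5. Cd14 made up most of this sum, at a mean of 12.2 RPM in Control and 38.5 RPM in 2MUT (adjusted p = 6.5e-05). Among the other markers, Lyz2 averaged 0.56 and 2.62 RPM, having passed the filter only through 2MUT, whereas Cd68 averaged 9.25 and 6.62 RPM (adjusted p = 0.19), and under the filter Csf1r averaged 0.19 and 1.28 RPM and Adgre1 0.533 and 0.183 RPM. The leukocyte marker Ptprc was at most 0.142 RPM in these libraries, and Cd3e was at 0. In the 2-HG table the sums were 25.7 to 27.1 RPM without and 22.1 to 26.9 RPM with 2-HG, and Ptprc was at 0 in all 6 libraries. Fibroblast markers also differed in both comparisons, with 1 higher and 7 lower of 9 tested in 2MUT and 1 higher and 5 lower of 9 with 2-HG, where all genes gave 16.5% and 17.3%, and 16.1% and 16.7%, in the same order. Their part in the chemokine results was not tested.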

How the data were processed

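RNA of 12 MEF libraries was prepared with an Ion AmpliSeq panel, which amplifies a short target per transcript. Levels were therefore not tested between genes, and the summed RPM and shares of reads carry this limit. The authors aligned the reads with TMAP to the AmpliSeq mouse reference, used the AmpliSeqRNA plug-in for counting and deposited 2 tables of RPM; the genome build is not given in the sources used here. Conditions came from the sample labels, and 0 columns were left unmapped. All values (100%) were whole multiples of 1 read within 0.0006 RPM, and whole reads were recovered. Per table, 27 names had become dates and 4 entries repeated a name.

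The test was that of limma (3.58.1, R 4.3.3) with a trend of the variance, applied to log2(RPM + 1) of genes averaging 1 RPM or more, with Benjamini-Hochberg adjustment over all tested genes and a threshold of 0.05. All fold changes on the log2 scale are of RPM + 1, which understates those of low genes; percentages and plain folds are ratios of mean RPM. All 10 members passed the filter in both tables. Alternatives included edgeR (4.0.16) and DESeq2 (1.42.0) on the recovered reads, other filters and scalings, an added 0.1 RPM, an unmoderated test, a replicate block and single libraries left out. List genes were named past the threshold with a log2 fold change of at least 1 in size, or beside a member's result. Adam10, Adam17, Nfkb2, Cxcl15, Tnf, Il1b and the receptors at 0 reads were chosen after their values were seen. Replicates of a group differed in chi-square by 5.88 to 33.1 per degree of freedom, so none was a duplicate. The members and lists were chosen with earlier results of these data known. Motifs and 30-base stretches shared between transcripts were searched in RefSeq and GENCODE M21 sequences with pandas 2.3.3. The limma test was checked on simulated counts, with 1 spread for all genes and changes of at least 1 on the log2 scale. Low genes were not among those changed, so changes of low genes and smaller changes were not covered. The study's own comparisons by Student's method were not used. Some genes of the lists are not reported here.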

Additional observations from a re-analysis of the deposited data

Results flagged for a closer look

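For 8 of the 10 chemokine genes the change in 2MUT and the change with 2-HG differed by the limma contrast. Of the 9594 genes tested in both tables, 19.9% differed with the 2MUT change more upward and 19.5% with it more downward. As the 2MUT change minus the 2-HG change on the log2 scale, the values were 3.62 for Cxcl5, 2.47 for Cxcl1, 2.29 for Ccl9, 2.14 for Cxcl12, 1.43 for Ccl7 and 0.69 for Ccl2, and -0.54 for Ccl5 and -1.06 for Ccl17. Cxcl1 and Cxcl5 were called in opposite directions, and Ccl5 and Ccl17 in the same direction with different sizes. The value of Ccl2 lost its call when any of 7 of the 12 libraries was left out.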

How the results depend on the processing

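Of the alternative values of the 10 members, 146 of 147 kept their direction and side of the threshold in 2MUT against Control, 148 of 149 in 2-HG(+) against 2-HG(-) and 186 of 197 for the difference. The exceptions were those of Ccl2 and Cxcl10 given in the report, and Cx3cl1, whose difference turned from -0.08 to 0.02 with quantile normalization and ranged from -0.17 to 0.00 with single libraries left out, reaching 0.00 without 2-HG(-) replicate 1. With a filter at 10 RPM, 1 member was called lower in the difference, because Ccl17 was then not tested; nor were Ccl9 and Cxcl10 in 2MUT. Over all genes, the unmoderated test called 1021 higher and 1223 lower in 2MUT, against 1826 and 1915, and 1098 higher and 1139 lower with 2-HG, against 1668 and 1737. The same test called 9 higher genes of the 6 lists in 2MUT and, with 2-HG, 1 higher and 13 lower; without the filter 1 higher list gene was called with 2-HG. On the recovered reads edgeR called 1818 higher and 1947 lower in 2MUT and 1794 and 1752 with 2-HG. With the replicate number as a block the counts were 1911 and 1987 in 2MUT and 1217 and 1286 with 2-HG, and no member's call changed. Deviations of same-numbered libraries correlated at 0.03 to 0.07 in 2MUT and Control and at -0.46 to 0.06 in the 2-HG table. Those of different-numbered libraries ran from -0.14 to 0.09 and from -0.41 to 0.48, respectively. With 3 libraries per group, these values cannot decide whether the numbers pair the samples. No block was fitted for the difference. Ccl8 gave no value in the settings where it did not pass the filter.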

Other observations

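Among all genes, those whose log2(RPM + 1) followed a member most closely were searched over 6716 genes averaging 10 RPM or more in each table, over the 12 libraries centred within each table. Because the libraries fall into 4 groups, this likeness mostly reflects the group means, and it is a description without a test. The acute phase gene Saa3 was closest to Cxcl5 (Pearson r = 0.994) and changed by 2.15 in 2MUT and by -2.32 with 2-HG on the log2 scale. Fbln5, an elastic fibre protein, and Trim24 followed Cxcl1 (0.983 and 0.989). The collagen gene Col3a1, which is also on the fibroblast marker list, was closest to Ccl5 (0.987), with log2 fold changes of -2.33 and -1.35, and the caveolar gene Cav1 to Cx3cl1 (0.987), with -0.82 and -0.95. Serpinb6b and Olfml3 followed Cxcl12 (0.989 and 0.985), and Maf and Lifr followed Ccl9 (both 0.986). For Ccl2 the closest gene, Srsf5, reached 0.945, the lowest of the 10 closest values.

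Exact 30-base stretches of annotated transcripts were compared between genes. Ccl2, Ccl7, Ccl17, Cxcl1, Cxcl10 and Cx3cl1 shared none with any other gene. Ccl5, Cxcl5 and Cxcl12 shared 0.753%, 0.926% and 0.122% of their stretches, and Ccl9 shared 3.95%, with 1202 other genes. The positions of the panel's targets were not used here.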
